A study of Mus musculus with 8 samples.

Results

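Glutamate receptors and the auxiliary subunits that travel with them were described in the PFC of mice overexpressing Rnf146. The members were chosen by gene symbol, as the subunits of AMPA, NMDA, kainate and delta receptors, the metabotropic receptors, the transmembrane AMPA receptor regulatory proteins (TARPs), *Cnih2* and *Cnih3*, both Neto genes and 3 Shisa genes. Of the 15039 genes in the table, 38 were members. The symbols *Cacng6*, *Grin3b* and *Grm6* also fall under these names, had no row and were not analysed here. *Grid2ip* was taken in by its name, although it encodes delphilin, a postsynaptic scaffold protein, and not a receptor subunit.

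The 8 RNA-seq libraries came from PFC tissue of wild-type C57BL/6NCrljOri males injected at 6 weeks of age. Rnf146 is an E3 ubiquitin ligase that marks poly(ADP-ribosyl)ated proteins such as axin for degradation, and the comparison asks which transcripts differ when neurons make more of it. In 4 mice the bilateral injection delivered AAV2/1-hsyn-RNF146-eGFP, and in 4 control mice AAV2/1-hsyn-eGFP, so both groups carried the virus, the neuronal human synapsin promoter and eGFP. The tissue was taken 4 weeks later, and the Rnf146 mice were ones that had shown both the overexpression and a social deficit. *Rnf146* checked the labels: its deposited log2 value lay between 10.35 and 10.50 in the eGFP libraries and between 13.01 and 13.17 in the Rnf146 libraries, where reads from the vector and from the gene itself cannot be told apart.

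Glutamate is the main excitatory transmitter of the cortex. AMPA receptors carry most of the fast current, NMDA receptors admit calcium when the membrane is depolarized, and kainate receptors modulate transmission on either side of the synapse. Metabotropic receptors act through G proteins. TARPs, cornichons, Shisa (CKAMP) and Neto proteins are not channels themselves. They bind the receptors and set their traffic to the membrane, their gating and their pharmacology.

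The deposited values are on a log2 scale between 7.86 and 18.8, and are close to variance-stabilized expression. Such a scale has a floor and compresses the changes of weakly expressed genes, so differences near the floor understate the change in RNA. The values were also centred within same-numbered libraries: for any gene, the sum of both values is equal in all 4 pairs. Each gene therefore holds 4 differences, Rnf146 minus eGFP, and a gene's groups do not overlap exactly when these have 1 direction. The call used limma with a block for the replicate number, and required an adjusted p no higher than 0.1. In bulk tissue, fewer cells of a type and less RNA per cell cannot be told apart.

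Of the 38 members, 2 were called and both rose in Rnf146-overexpressing mice, *Cacng5* and *Grid2ip*, which is 5.26% of the members beside 1.25% of all genes. Without *Grid2ip*, which is not a receptor subunit, 1 of 37 members was called, or 2.7%. In the higher direction alone the background was 0.818% of genes, and in the lower direction, where 0 members were called, it was 0.432%. Without the replicate block, limma called 16 members, 10 higher and 6 lower, or 42.1% beside 21.5% of all genes. That fit takes both mirrored values of a pair as independent, so its p-values are too small. Here and below they are given for comparison only. At an unadjusted p under 0.05 with the block, 11 of the 38 members passed, beside 12.4% of all genes. The mean difference was above 0 for 19 members and below 0 for 19, and the median over the members was 0.00. The signs were thus evenly split. All 17 ionotropic subunits had mean differences between -0.13 and 0.12, and 0 were called (1 at an unadjusted p under 0.05), and the 13 auxiliary subunits ran from -0.22 to 0.42.

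**Figure D1:**
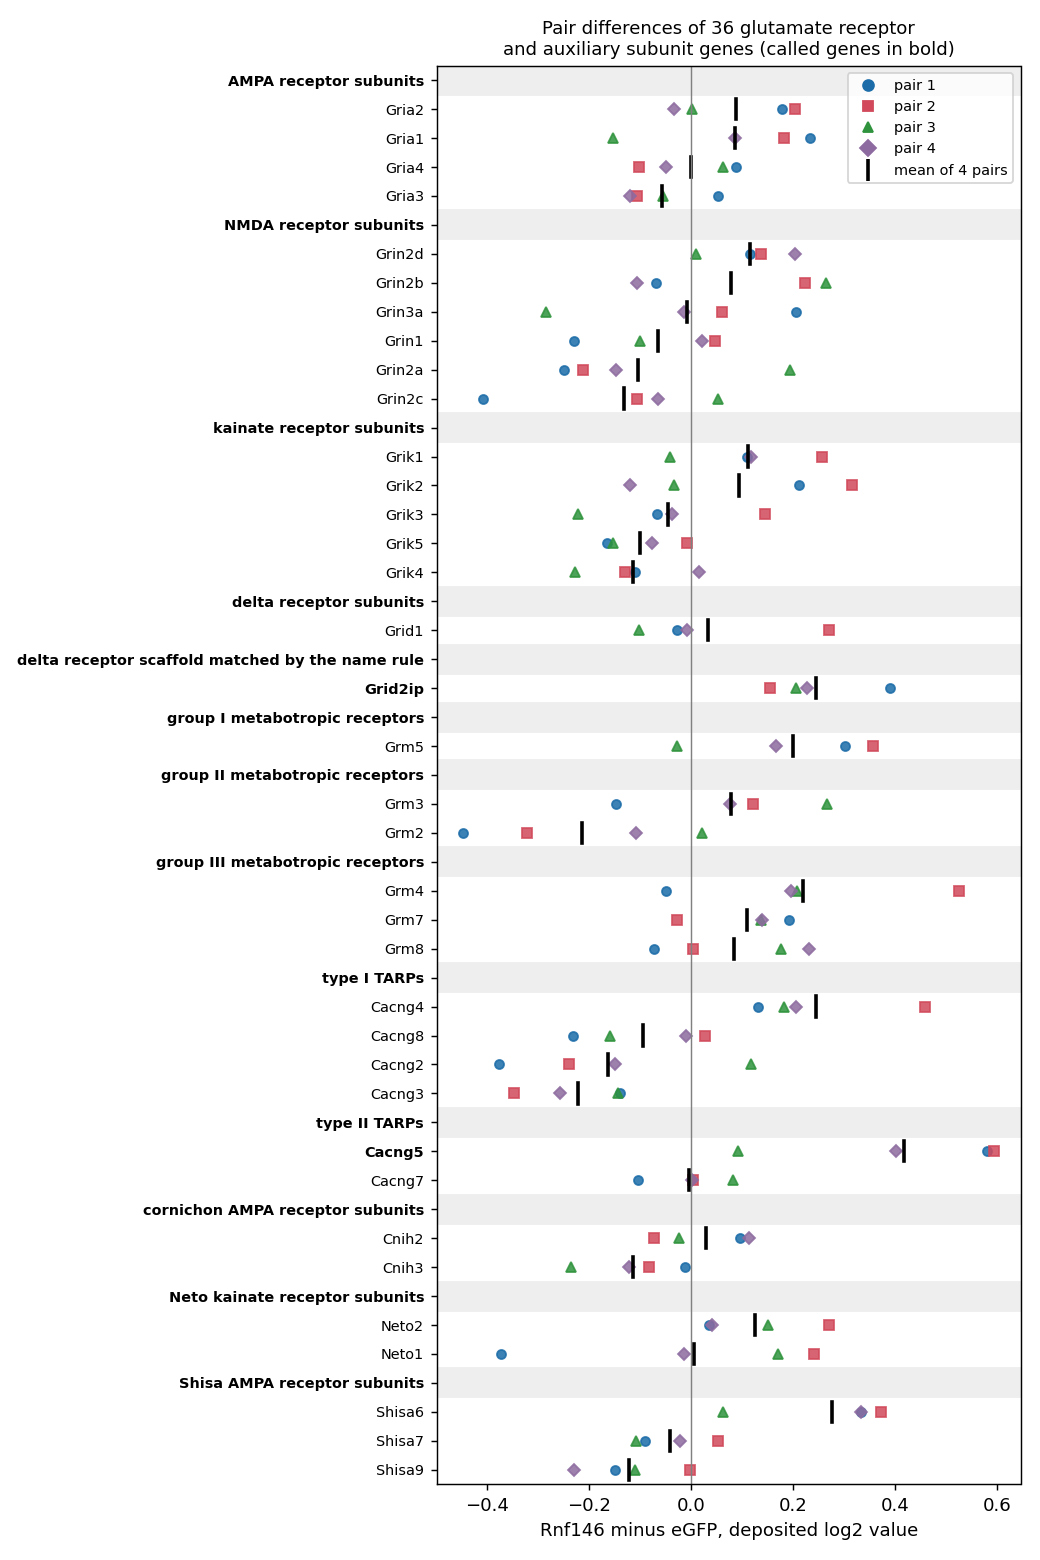
The horizontal axis gives the difference of the deposited log2 value, Rnf146 minus eGFP, for 36 of the 38 members (rows, by class), with 1 point for each of the 4 pairs and a black bar at their mean. *Cacng5* has the mean farthest to the right at 0.42 and *Cacng3* the mean farthest to the left at -0.22, and most ionotropic subunits straddle 0.

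A difference in 1 direction in all 4 pairs was found for 10 members, 6 higher and 4 lower. This is 26.3% of the members (24.3% without *Grid2ip*) beside 20.6% of all genes. The 6 that were higher in every pair were *Cacng5*, *Shisa6*, *Grid2ip*, *Cacng4*, *Neto2* and *Grin2d* (background 10.4% of genes). The 4 that were lower in every pair were *Cacng3*, *Shisa9*, *Cnih3* and *Grik5* (background 10.2%). Of these 10 genes, 7 are auxiliary subunits, 2 are channel subunits and 1 is the scaffold *Grid2ip*. A mean difference of 0.2 or more in either direction was seen for 7 members, or 18.4% (16.2% without *Grid2ip*), beside 4.85% of all genes. The mean values of these 7 members lay from 0.80 (*Grid2ip*) to 3.41 (*Cacng3*) above the lowest value of the table. Weakly expressed genes are compressed on this scale, and the last comparison was not matched for expression. Whether this bears on the shares was not tested. The pairs of a member also spread more, with a median SD of 0.13 beside 0.10 over all genes.

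**Figure D2:**
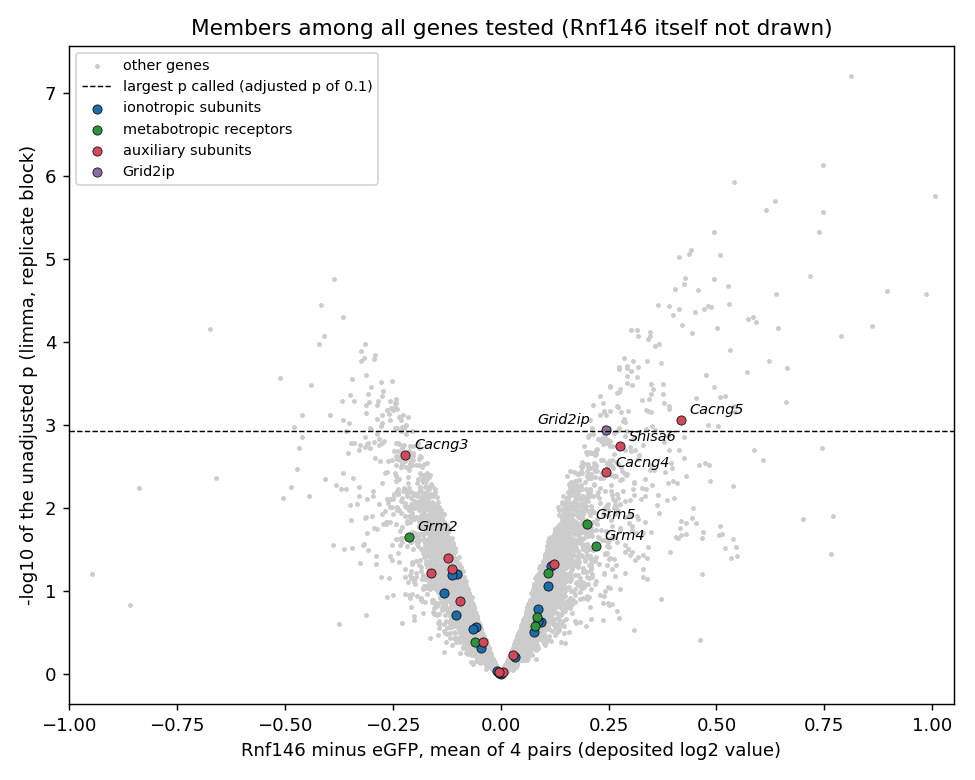
The horizontal axis gives the mean difference over the 4 pairs (deposited log2 value) and the vertical axis the -log10 of the unadjusted p from limma with the replicate block, for all genes (grey) and the members (coloured by kind). *Cacng5* lies above and *Grid2ip* on the dashed line, the largest p that was called, *Shisa6*, *Cacng4* and *Cacng3* lie just under it, and the other members lie lower.

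*Cacng5* encodes γ-5, a type II TARP that binds AMPA receptors and alters their gating. Its deposited value was 9.43, 9.43, 9.68 and 9.52 in eGFP libraries 1 to 4, and 10.01, 10.02, 9.77 and 9.92 in Rnf146 libraries 1 to 4. Every Rnf146 library was above every eGFP library, and the groups came closest in pair 3. Pair by pair, the difference was 0.58, 0.59, 0.09 and 0.40. The mean rise was 0.42 ± 0.23 (SD, n = 4 pairs), at an adjusted p of 0.082 (limma, block). Pair 3 was also the pair in which marker genes of the septum and basal forebrain differed least, by 0.30, as did those of cortical excitatory neurons, by -0.06. The other type II TARP, *Cacng7* (γ-7), had a mean difference of 0.00 ± 0.08 (SD, n = 4 pairs), with a 95% interval from -0.11 to 0.10.

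The ratio of *Cacng5* to *Cacng7* was higher in all 4 pairs, by 0.68, 0.59, 0.01 and 0.40 on the log2 scale. As the mean of *Cacng7* hardly differed, the ratio largely restates the difference of *Cacng5*. The mean difference of the ratio was 0.42 ± 0.30 (SD, n = 4 pairs), for which an exact two-sided sign-flip test gave p = 0.125, the lowest value that 4 pairs allow. The call of *Cacng5* rested on the pairs used. Without pair 1, 2 or 4 its adjusted p from limma was 0.123, 0.327 or 0.322, and without pair 3 it was 0.025.

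**Figure D3:**
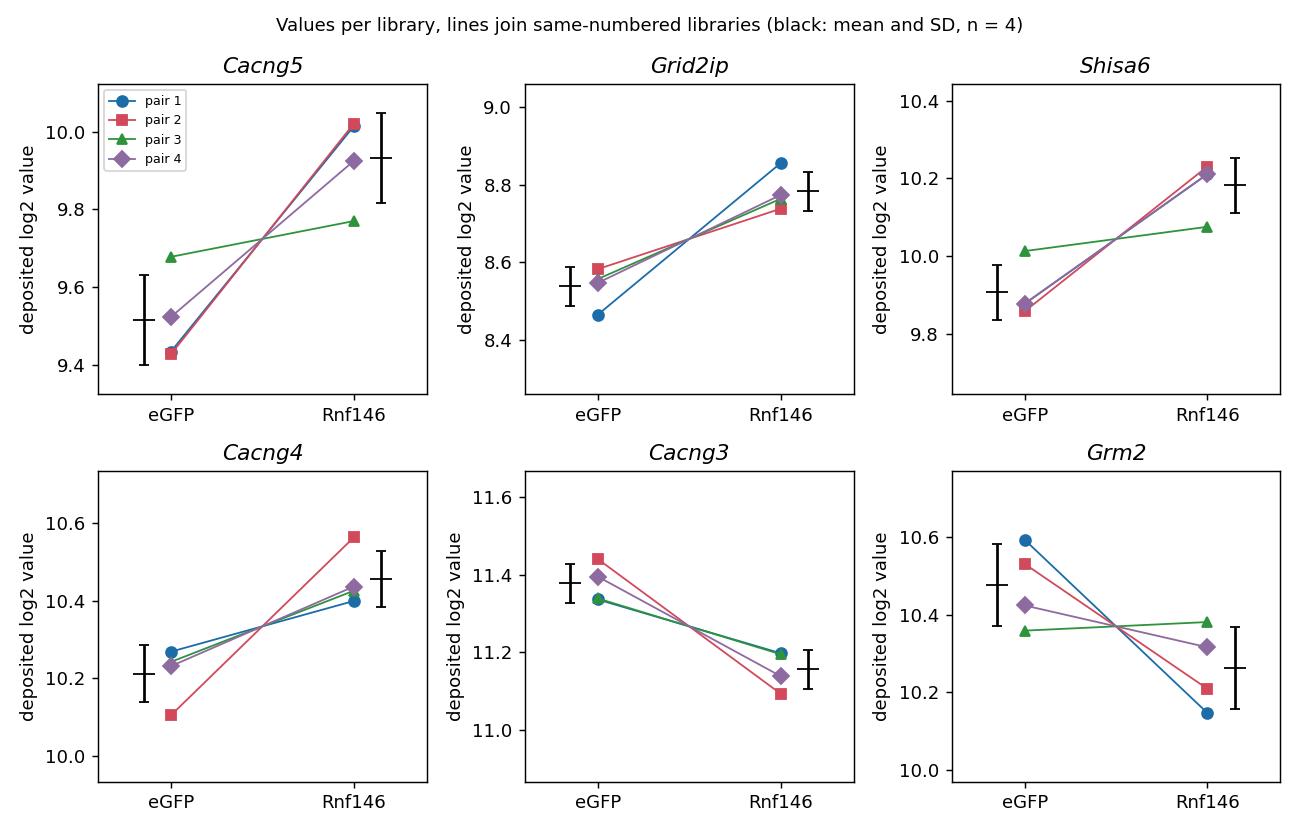
Each panel gives the deposited log2 value of 1 gene (vertical axis, 0.8 units in every panel) in the 4 eGFP and 4 Rnf146 libraries, with lines joining same-numbered libraries and black bars at the mean and SD of each group. The lines of a gene mirror each other around 1 value because the deposited values were centred within pairs. For the same reason the SD is equal in both groups and does not show the spread between animals. In *Cacng5* and *Shisa6* pair 3 changes least, in *Cacng4* and *Cacng3* pair 2 changes most, and *Grm2* is the one gene drawn whose groups overlap.

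*Cacng5* lies on chromosome 11 (GRCm39, 107765431 to 107811030, minus strand), and the nearest other member on that chromosome is *Cacng4*, at 107623183 to 107685662 on the same strand. The gap between the genes is 79.8 kb. *Cacng4* encodes γ-4, a type I TARP. Its value was 10.27, 10.11, 10.24 and 10.23 in the eGFP libraries and 10.40, 10.56, 10.43 and 10.44 in the Rnf146 libraries, so its groups did not overlap either. From pair 1 to pair 4 the difference was 0.13, 0.46, 0.18 and 0.20, on average 0.24 ± 0.15 (SD, n = 4 pairs). It was not called with the block (adjusted p = 0.156 from limma) and was called without it (adjusted p = 0.013).

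The other genes of the table within 500 kb of these 2 genes, a window chosen after their values were seen, were *Prkca*, *Helz*, *Psmd12* and *Pitpnc1*. *Prkca*, which codes for protein kinase C alpha and lies next to *Cacng5*, was also higher in every pair, on average by 0.11 ± 0.06 (SD, n = 4 pairs; adjusted p = 0.347 from limma with the block and 0.019 without it). *Pitpnc1* was higher in 3 of 4 pairs, with 0.24 ± 0.20 (adjusted p = 0.229 with the block and 0.035 without it), while *Helz*, at -0.03, and *Psmd12*, at -0.01, were close to 0. The other close neighbours among the members, *Cacng7* and *Cacng8* on chromosome 7 with 22.5 kb between them, had mean differences of 0.00 and -0.09.

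The 250 bases before the start of the canonical transcript are shown for *Cacng5* and *Grid2ip* as the called members and for *Cacng3* as the member with the lowest mean difference. They were read from GRCm39 at GENCODE starts, 5′ to 3′ on the strand of the gene, and capitals mark each CG dinucleotide.
*Cacng5*, chr11:107805896-107806145, minus strand: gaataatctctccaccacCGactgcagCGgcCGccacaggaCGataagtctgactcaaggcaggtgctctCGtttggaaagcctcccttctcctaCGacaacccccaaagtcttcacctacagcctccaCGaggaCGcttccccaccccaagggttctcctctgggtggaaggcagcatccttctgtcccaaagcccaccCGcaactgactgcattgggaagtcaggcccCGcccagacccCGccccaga
*Grid2ip*, chr5:143349413-143349662, plus strand: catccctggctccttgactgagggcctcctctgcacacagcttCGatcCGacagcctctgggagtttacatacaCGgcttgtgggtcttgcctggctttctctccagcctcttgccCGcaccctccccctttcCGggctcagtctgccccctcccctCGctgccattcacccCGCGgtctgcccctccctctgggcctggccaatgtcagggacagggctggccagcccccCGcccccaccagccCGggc
*Cacng3*, chr7:122269465-122269714, plus strand: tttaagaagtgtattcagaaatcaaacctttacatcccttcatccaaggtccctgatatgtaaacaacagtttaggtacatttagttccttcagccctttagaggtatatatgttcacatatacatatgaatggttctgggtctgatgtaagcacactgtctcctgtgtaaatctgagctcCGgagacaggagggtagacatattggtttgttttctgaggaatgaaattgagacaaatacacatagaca
The *Cacng5* window held 11 CG dinucleotides, the *Grid2ip* window 10 and the *Cacng3* window 1. The median was 11 over the 38 member windows, which ran from 0 to 46, and 12 over 14589 genes. The called members thus lay at or near the median of the members in CG content. The canonical starts of *Cacng5* and *Grid2ip* lie inside their annotated genes, where other transcripts start further upstream.

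The letters CTTTGAT, a core bound by TCF/LEF factors, were searched on both strands of the same windows. They were found in 1 of the 38 member windows, that of *Grin2b* 57 to 51 bases before the start, and in 2.34% of the windows of all genes. That stretch is shown with the match in capitals.
*Grin2b*, chr6:136150340-136150370, minus strand: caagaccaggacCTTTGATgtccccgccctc
A match to these letters is a description of the sequence, and *Grin2b* itself was not called. The canonical start of *Grin2b* also lies inside its annotated gene, so this stretch is upstream of that start but within the gene.

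*Grid2ip* (chromosome 5, 143343093 to 143377907, plus strand) rose from 8.47, 8.58, 8.56 and 8.55 in the eGFP libraries to 8.86, 8.74, 8.76 and 8.77 in the Rnf146 libraries. The pair differences were 0.39, 0.16, 0.21 and 0.23, and pair 1 was the largest. The average rise was 0.24 ± 0.10 (SD, n = 4 pairs), and limma gave an adjusted p of 0.094. Its mean value lies 0.80 above the lowest value of the table, which is the compressed end of the scale. The call was lost without any 1 of the pairs (adjusted p between 0.133 and 0.330), under quantile normalization (0.118), without a variance trend (0.105) and after correction for length and GC content (0.104). The delta receptor subunit *Grid1* had a mean of 0.03 ± 0.16 (SD, n = 4 pairs).

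*Shisa6* encodes CKAMP52, which keeps AMPA receptors at the postsynaptic membrane and slows their desensitization. Its value was 9.88, 9.86, 10.01 and 9.88 in the eGFP libraries and 10.21, 10.23, 10.08 and 10.21 in the Rnf146 libraries. The difference was 0.33, 0.37, 0.06 and 0.33, so pairs 1, 2 and 4 were alike and pair 3 was near 0. The mean of 0.28 ± 0.14 (SD, n = 4 pairs) missed the threshold with the block (adjusted p = 0.116 from limma) and passed it without the block (adjusted p = 0.0076) or without pair 3 (adjusted p = 0.055). Without pair 1, 2 or 4 it missed the threshold, at an adjusted p from limma of 0.16, 0.42 or 0.40. Its relative *Shisa9* (CKAMP44) had the opposite sign, with differences of -0.15, -0.00138, -0.11 and -0.23 and an adjusted p of 0.372 from limma. *Shisa7*, the third of these genes, had a mean of -0.04.

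*Cacng3* encodes γ-3, a type I TARP of the cerebral cortex, and had the lowest mean difference of the members. Its value was 11.34, 11.44, 11.34 and 11.39 in the eGFP libraries against 11.20, 11.09, 11.20 and 11.14 in the Rnf146 libraries, with no overlap. The pairs had -0.14, -0.35, -0.14 and -0.26, on average -0.22 ± 0.10 (SD, n = 4 pairs). Markers of cortical excitatory neurons were likewise lowest in pair 2, at -0.36, as were those of microglia, at -0.30. For *Cacng3*, limma gave an adjusted p of 0.128 with the block, 0.0055 without it and 0.088 without pair 1. It was called in only these 2 of 11 alternatives, and with the block its adjusted p from limma rose to as much as 0.45. *Cacng2* (stargazin, γ-2) had -0.38, -0.24, 0.12 and -0.15, and *Cacng8* (γ-8) had a mean of -0.09 ± 0.12 (SD, n = 4 pairs). Within the type I TARPs, 3 of 4 genes thus had a mean below 0 and *Cacng4* one above it, and 0 of the 4 were called.

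Among the remaining auxiliary subunits, *Cnih3*, a cornichon that promotes export of AMPA receptors from the endoplasmic reticulum, had differences of -0.01, -0.08, -0.24 and -0.12. *Cnih2* had a mean of 0.03. The kainate receptor partner *Neto2* had a mean of 0.12 ± 0.11 and *Neto1* one of 0.01 ± 0.27 (SD, n = 4 pairs), the widest spread of all members. Its lowest difference was -0.37, in pair 1, and its highest 0.24, in pair 2.

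The pore-forming AMPA receptor subunits did not differ between the groups beyond the spread of the pairs. *Gria1* had differences of 0.23, 0.18, -0.15 and 0.09, with a 95% interval of the mean from -0.07 to 0.24. *Gria2*, the subunit that makes the channel impermeable to calcium after RNA editing, had 0.18, 0.20, 0.00 and -0.03, with an interval from -0.04 to 0.22. *Gria3* and *Gria4* had means of -0.06 and 0.00. The ratio of *Gria1* to *Gria2* differed by 0.05, -0.02, -0.15 and 0.12, on average by 0.00 ± 0.12 (SD, n = 4 pairs), and the exact two-sided sign-flip test gave p = 1.

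NMDA receptor subunits had means of both signs, and 0 of the 6 were called. The obligatory subunit *Grin1* had differences of -0.23, 0.05, -0.10 and 0.02, with a 95% interval of the mean from -0.20 to 0.07. *Grin2a* had -0.25, -0.21, 0.19 and -0.15, and *Grin2b* had -0.07, 0.22, 0.26 and -0.11. These are the main GluN2 subunits of the forebrain, and GluN2A gains on GluN2B as the cortex matures. Neither was called, but their ratio was lower in every Rnf146 library than in the eGFP library of its pair.

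The ratio of *Grin2a* to *Grin2b* differed by -0.18, -0.43, -0.07 and -0.04 in the 4 pairs. Its mean of -0.18 was about the size of its SD of 0.18 over the 4 pairs, and the exact two-sided sign-flip test gave p = 0.125, again the lowest value possible. The pairs shared the direction and differed in size. Leaving out pair 2 moved the mean to -0.10. *Grin2c* had differences of -0.41, -0.11, 0.05 and -0.07, and *Grin2d* was higher in every pair with a mean of 0.12 ± 0.08 (SD, n = 4 pairs; adjusted p = 0.400 from limma). *Grin3a* had a mean of -0.01 ± 0.21.

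**Figure D4:**
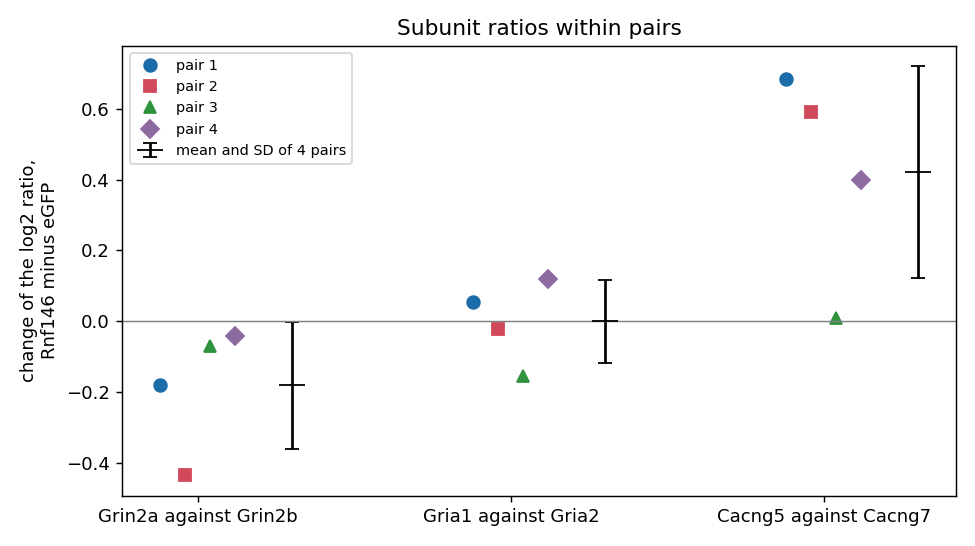
The vertical axis gives the change of the log2 ratio of 2 subunits, Rnf146 minus eGFP, for the 4 pairs (coloured points), with the mean and SD in black. *Grin2a* against *Grin2b* lies below 0 in all 4 pairs, *Gria1* against *Gria2* lies on both sides of 0, and *Cacng5* against *Cacng7* lies above 0, with pair 3 at 0.01.

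Of the 5 kainate receptor subunits, 0 were called with the block. *Grik5* was the only one of them with 1 direction in all 4 pairs, at a mean of -0.10 ± 0.07 (SD, n = 4 pairs; adjusted p = 0.435 from limma), and without the block it was called (adjusted p = 0.043). Also called without the block were *Grik4*, the other high-affinity subunit, with a mean of -0.11 (adjusted p = 0.061), and, in the other direction, *Grik1* with 0.11 (adjusted p = 0.099). The fit without the block has p-values that are too small, and it called 21.5% of all genes. *Grik2* had a mean of 0.09 and *Grik3* one of -0.04.

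Metabotropic receptors showed differences of both signs, and 0 of 7 were called (3 at an unadjusted p under 0.05). *Grm5*, a postsynaptic receptor coupled to Gq, had differences of 0.30, 0.36, -0.03 and 0.17, on average 0.20 ± 0.17 (SD, n = 4 pairs; adjusted p = 0.269 from limma). *Grm2*, a Gi-coupled receptor that restrains transmitter release, had -0.45, -0.32, 0.02 and -0.11, on average -0.21 ± 0.21 (SD, n = 4 pairs; adjusted p = 0.305 from limma). *Grm3* of the same group had a mean of 0.08.

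The 3 group III receptors in the table all had means above 0. *Grm4* had differences of -0.05, 0.53, 0.21 and 0.20, and a mean of 0.22 ± 0.24 (SD, n = 4 pairs; adjusted p = 0.329 from limma). Pair 2 was the highest by far. It was also the highest for markers of striatal medium spiny neurons, at 1.27, and for other members such as *Cacng4* and *Grm5*. *Grm7* had a mean of 0.11 and *Grm8* one of 0.08. None of the 7 receptors had 1 direction in all 4 pairs.

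Marker genes of other cells and regions moved in some of the same pairs. Septal and basal forebrain genes (8 of 10 had a row) were higher in every pair, by 0.55, 0.64, 0.30 and 0.55 on average. Of the 8, 8 were called higher, beside 0.818% of all genes. The marker lists were chosen with earlier results of these data known, and the authors name *Ngfr* among their upregulated genes. The counts called in these lists are therefore no independent test. Their mean value ran from 9.15 to 9.32 in the eGFP libraries and from 9.62 to 9.79 in the Rnf146 libraries. *Cacng5*, *Shisa6* and *Grin2d*, whose groups did not overlap, also had their lowest difference in pair 3, as did *Grm5* and *Gria1*, whose groups overlapped. Pair 3 was lowest in *Grik1*, *Grid1*, *Grin3a*, *Shisa7*, *Grik3*, *Grik4* and *Cnih3* as well, most of them with a mean below 0. A low pair 3 was thus not particular to the members that rose. Of the other members higher in every pair, *Cacng4* and *Neto2* were lowest in pair 1 and *Grid2ip* in pair 2. The list of striatal medium spiny neurons (13 of 13 genes) had -0.11, 1.27, 0.66 and 0.28, and *Grm4* was likewise below 0 in pair 1 and highest in pair 2. The same held for *Grid1*, *Neto1*, *Grin1*, *Grik3*, *Cacng8*, *Shisa7*, *Grik5* and *Shisa9*, so this pattern was not particular to *Grm4*. None of the 13 striatal genes was called. In the eGFP libraries this list ran from 9.87 to 10.56 and in the Rnf146 libraries from 10.44 to 11.13.

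The list of cortical excitatory neurons (10 of 10 genes) was lower in every pair, by -0.20, -0.36, -0.06 and -0.21. It ran from 11.30 to 11.45 in the eGFP libraries and from 11.09 to 11.24 in the Rnf146 libraries. Of its genes 2, *Slc17a7* and *Neurod2*, were called lower, beside 0.432% of all genes. The authors name both among their downregulated genes. Oligodendrocyte genes (9 of 9) had -0.14, 0.47, 0.91 and 0.55, and 0 were called. Microglial genes (6 of 6) had a mean of -0.17, and the lists of GABAergic interneurons (8 of 8), oligodendrocyte precursors (4 of 4), astrocytes (7 of 7) and endothelial and mural cells (5 of 5) had means of 0.14, 0.03, -0.03 and 0.04. Of the interneuron genes, *Gad1*, *Gad2* and *Slc32a1* were called higher, while the other 5 had means below 0, from -0.03 for *Pvalb* to -0.23 for *Vip*, and were not called. Each marker with a row had a mean value of 8.45 or more, above the lowest value of 7.86, and the excitatory list was at 9.18 or more for each gene, so the markers of the labelled tissue were present. The septal markers *Lhx8* and *Chat* had no row. The part of these cells and regions in the values of the receptors was not tested.

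**Figure D5:**
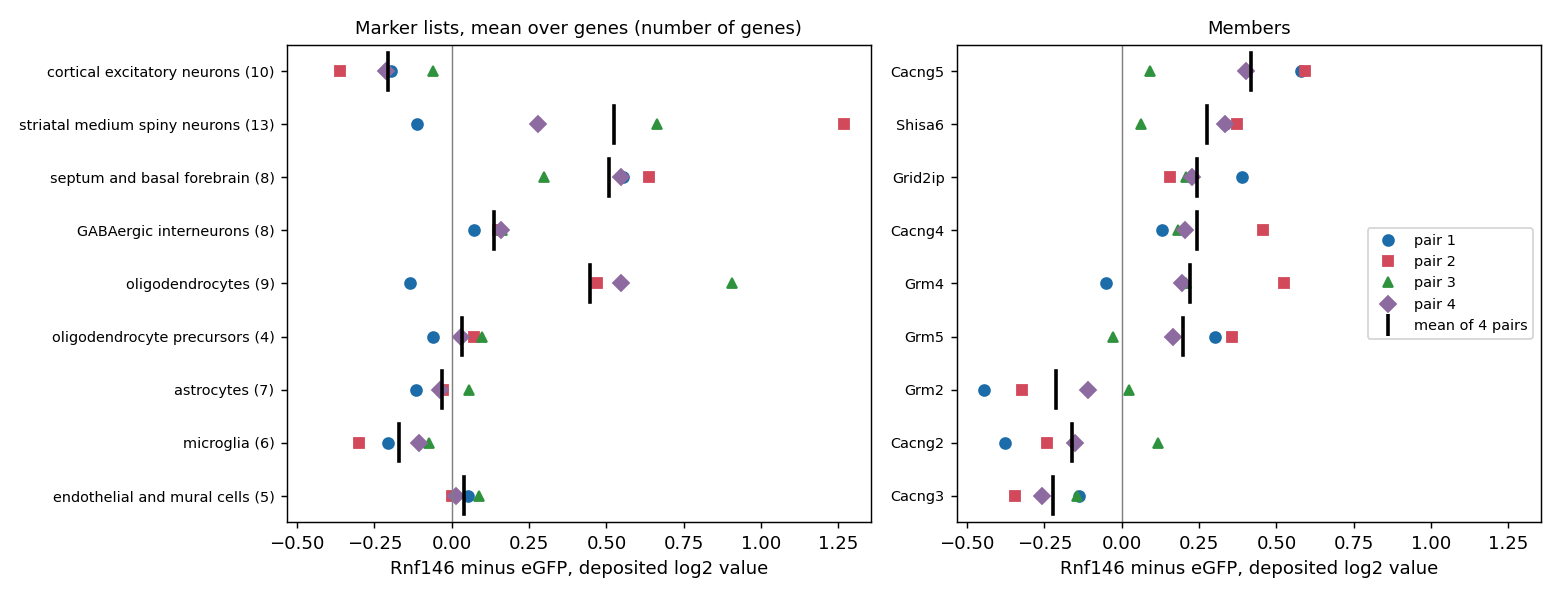
The horizontal axis gives the difference of the deposited log2 value, Rnf146 minus eGFP, for the mean of each marker list (left, number of genes in brackets) and for 9 members (right), with 1 point for each pair and a black bar at the mean. The septal list and *Cacng5* have their lowest point in pair 3, at 0.30 and 0.09, and the striatal list and *Grm4* have their highest in pair 2, at 1.27 and 0.53. *Shisa6* and *Grm5* also have their lowest point in pair 3, and *Cacng5*, *Shisa6*, *Cacng4* and *Grm5* have their highest in pair 2.

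Genes that act around the receptors were read from 5 further lists with 67 genes in the table. The lists were chosen with earlier results of these data known. The authors themselves name *Slc17a7*, *Nptx1* and *Synpo* among their downregulated genes, so the counts below do not test the lists independently. Of the 67 genes, 0 were called higher and 5 lower, beside 0.432% of all genes called lower, and their median difference was -0.04 beside 0.00 over all genes. Without the replicate block 17 were called lower and 6 higher, beside 10.4% and 11.0% of all genes. With the block but without pair 2 or pair 4, 0 were called lower, where 3 and 0 genes were over the whole table. Of the transporters that load vesicles with glutamate, *Slc17a7* (VGLUT1, the main cortical one) was called lower with differences of -0.41, -0.43, -0.14 and -0.23, on average -0.30 ± 0.14 (SD, n = 4 pairs; adjusted p = 0.092 from limma). *Slc17a6* (VGLUT2) had the highest mean, 0.12 ± 0.27. Among 21 further proteins of AMPA receptor complexes, the neuronal pentraxin *Nptx1* and the pentraxin receptor *Nptxr*, which cluster AMPA receptors from outside the cell, fell. *Nptx1* had -0.42, -0.35, -0.20 and -0.27, on average -0.31 ± 0.10 (SD, n = 4 pairs; adjusted p = 0.048 from limma). *Nptxr* had differences of -0.23, -0.61, -0.30 and -0.32, on average -0.37 ± 0.17 (SD, n = 4 pairs; adjusted p = 0.069 from limma). *Olfm3* had the highest mean of that list, 0.12.

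Of 25 scaffold and trafficking genes, 4 had a mean above 0 and 21 below, beside 50.5% of all genes above 0. *Tamalin*, a scaffold of metabotropic receptors, fell by 0.32, 0.38, 0.16 and 0.34 in the 4 pairs (adjusted p = 0.057 from limma), and *Synpo*, an actin-binding protein of dendritic spines, had -0.23, -0.40, -0.32 and -0.31, on average -0.32 ± 0.07 (SD, n = 4 pairs; adjusted p = 0.029 from limma). *Arc*, which promotes the endocytosis of AMPA receptors, had the lowest mean of the list, -0.66 ± 0.55, with -1.46 in pair 2 and an adjusted p of 0.167, and *Ncdn* had the highest, 0.16. Of 8 extracellular ligands of kainate and delta receptors, *C1ql3* had the lowest mean, -0.31 ± 0.18 (adjusted p = 0.105), and *Nrxn3* the highest, 0.12. Of 10 genes of glutamate uptake and turnover, 0 were called, and the highest mean was 0.11, for the transporter *Slc1a5*. The lists of cortical excitatory markers and of these genes share *Slc17a7*.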

How the data were processed

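PFC RNA of 8 mice, 4 with Rnf146-AAV and 4 with eGFP-AAV, was sequenced after TruSeq stranded mRNA preparation. Reads were trimmed with Cutadapt and quantified with Salmon 1.9.0 on GENCODE vM30 (GRCm39) by the authors, and DESeq2 is among the tools of the submitters' processing notes. The deposited file is named as normalized counts, but its values are log2 values that the authors had centred within same-numbered pairs (largest spread of the pair sums 1.4e-13). The transformation and the centring are not given in the sources used here. Without counts, a count test could not be used, and both sequencing depth and counting error are unknown.

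All 15039 genes entered limma 3.58.1 (lmFit and eBayes with trend, R 4.3.3), with a block for the replicate number, and p-values were adjusted by Benjamini-Hochberg over all of them. The block leaves 3 residual degrees of freedom, where the fit without it would count 6 for values that hold 4 differences. The replicate numbers of the labels and the centring give the pairs. The centring fixes the correlation of paired libraries' deviations, so it cannot show whether mice of a pair shared a batch. Nothing in the labels says how animals were paired. The fit was tested on simulated data first.

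Subunit ratios were tested with an exact sign-flip test, whose smallest two-sided p is 0.125. Intervals are 95% intervals from limma. Coordinates, transcript lengths and GC content came from GENCODE vM39 on GRCm39 and were found for 14590 genes (97.0%). Python 3.11.15, pandas 2.3.3 and scipy 1.17.1 were used. Of the 38 members 36 are named, and the others are not reported here, nor are some values of other genes. Values of each pair are given for called members, the 6 highest, the 6 lowest and the principal subunits, and in the related lists for called genes, with the highest and, with 1 exception, the lowest of each list named. The members, the lists and the tests were chosen with earlier results of these data known. The alternatives were no replicate block, each pair left out, median centring, quantile normalization, a minimum mean value of 9, no variance trend, robust variances, a correction for GC content and length, and an adjusted p of 0.05.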

Additional observations from a re-analysis of the deposited data

Results flagged for a closer look

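The 38 members were searched for a pair whose difference lay far from those of the other 3, by its gap to the nearest one as a share of the whole range. *Shisa6* was the 1 that passed. Pair 3 gave 0.0626, and pairs 1, 2 and 4 gave 0.33, 0.37 and 0.33. Chance marks about 1 in 20 genes in such a search.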

How the results depend on the processing

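The counts of called members are small and moved with most settings. With the block, 2 members were called higher and 0 lower. Without the replicate block, 10 were higher and 6 lower, or 42.1% of the members beside 21.5% of all genes. The count of higher members was 1 under quantile normalization, no variance trend, or the GC and length correction, and 0 at an adjusted p of 0.05. It was also 1 under a minimum mean value of 9, where the filter itself removed *Grid2ip* (mean value 8.66). Median centring and robust variances left the count at 2. Leaving out 1 pair gave between 0 and 2 higher members and between 0 and 1 lower ones. *Cacng5* was called in 8 of 11 alternatives, with a mean difference between 0.36 and 0.53, and the call was lost without pair 1, 2 or 4. Over all genes, 14 were called without pair 4 and 42 without pair 2.

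The number of members with 1 direction in every pair used was 7 to 10 for higher and 5 to 8 for lower ones when a pair was left out, with only 3 pairs to satisfy. Of the related glutamate genes, 5 were called lower and 0 higher with the block. Without the replicate block 17 were lower and 6 higher (10.4% and 11.0% of all genes), at an adjusted p of 0.05 there were 2 lower, and with a pair left out there were 0 to 6. These alternatives for the related genes were chosen after seeing the data.

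Members close to 0 changed sign when a pair was left out. Their means ran from -0.0457 to 0.0782 for *Grid1*, -0.0718 to 0.13 for *Neto1*, -0.0295 to 0.0336 for *Gria4*, -0.0326 to 0.0298 for *Cacng7*, -0.0791 to 0.0838 for *Grin3a* and -0.11 to 0.0138 for *Grik3*. The ratio of *Gria1* to *Gria2* ran from -0.0406 to 0.0507. With the GC and length correction *Neto1* was at -0.0336 and *Cacng7* at 0.0322. The cause of these changes was not tested.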
